A study of Mus musculus with 8 samples.

Results

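The 10 genes described here carry the signal that runs from small GTPases through actin to MKL1. They are the exchange factor Arhgef2 (also known as GEF-H1), the GTPases Rhoa, Rhob and Rhoc, the kinases Rock1 and Rock2, the formins Diaph1 and Diaph2, and the LIM kinases Limk1 and Limk2. They were chosen by gene symbol, with no measured value in the rule, although earlier results of these data were known. All 10 were found among the 53735 gene symbols of the deposited count tables. KO cells showed no common direction for these genes. In the first experiment 5 of them were lower and 2 higher in KO (28.1% and 27.0% of all genes tested were). In the second only Rhob passed the threshold, as a higher gene (7.52% of all genes were higher and 8.29% lower). Rhob moved in opposite directions, from 1.42-fold lower to 4.59-fold higher. Replicate libraries lay further apart in the second experiment, so fewer calls there do not mean that KO effects were absent.

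A small GTPase such as RhoA is active when it binds GTP and inactive when it binds GDP. Exchange factors load GTP, GTPase activating proteins stop the signal, and dissociation inhibitors hold the inactive form in the cytosol. Active RhoA binds the ROCK kinases, which phosphorylate myosin light chain and the LIM kinases, and the diaphanous formins, which nucleate and elongate actin filaments, whereas LIM kinases phosphorylate and inactivate cofilin, a protein that severs filaments. Both branches use up monomeric actin, which otherwise holds MKL1 in the cytoplasm, so that MKL1 enters the nucleus and acts with SRF on its target genes. In macrophages the pathway is known for its part in adhesion, contraction and migration.

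Bulk RNA-seq was carried out on bone marrow derived macrophages (BMDMs) of male mice aged 6 months on a C57BL/6J background. All mice lacked Apoe, and all received Ang II from subcutaneous minipumps for 7 days at 1.44 mg/kg/day before bone marrow was taken and grown into macrophages for another 7 days. WT stands for Mkl1+/+, Apoe-/- and KO for Mkl1-/-, Apoe-/-, a global knockout that is not limited to macrophages. There were 2 experiments, which the submitters call batches and compared separately: WT libraries 1 and 2 with KO libraries 5 and 6 in experiment 1, and WT libraries 3 and 4 with KO libraries 7 and 8 in experiment 2. Whether the 2 libraries of a group came from separate mice is not stated in the labels, so p-values measure only the spread between these libraries. Mice without Ang II or with functional Apoe were not analysed here.

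Libraries held between 33977799 and 41584540 counts. Levels are CPM (the counts of a gene relative to all counts of its library, TMM-scaled), and KO was compared with WT by the quasi-likelihood test of edgeR over 14418 genes, with p-values adjusted by Benjamini-Hochberg and called under 0.05. The targeted gene Mkl1 was between 25.6 and 29.5 CPM in WT and between 10.4 and 20.9 CPM in KO, so its reads were fewer in every KO library and absent from none. Of the macrophage markers, Lyz2 was between 7602 and 23927 CPM and Adgre1 (F4/80) between 1667 and 8324 CPM in all libraries, whereas Cd163 and F13a1 were at or under 5.13 CPM. The markers did not move together: in KO of experiment 1, 5 of the 10 were higher, among them Csf1r, Cd68 and Mertk, and 3 were lower, among them Adgre1 (log2 fold change -2.11), and in experiment 2, 2 were higher and 2 lower. The 8 neutrophil markers summed to at most 1.52 CPM and the 6 lymphocyte markers to at most 0.108 CPM. The 10 fibroblast markers (collagens, Pdgfra and others) summed to 279.6 CPM in KO 5, to 351 CPM in KO 6 and to between 5.39 and 26.0 CPM in the other 6 libraries, with Lum and Thy1 at or near 0 throughout. The dendritic cell list was near 0 apart from Itgax, which had 19.2 to 46.7 CPM in KO 5, KO 6, WT 3 and WT 4 and at most 3.24 CPM in the other 4. The 20 cell cycle genes summed to 4266 and 4285 CPM in WT of experiment 2 and to between 1838 and 2678 CPM elsewhere. Not every gene of the list followed the sum. Mcm2 had 58.0 and 73.5 CPM in WT of experiment 2 and 93.5 and 103 CPM in WT of experiment 1. Mcm3 and Pcna were also lower in WT of experiment 2 than in WT of experiment 1. These levels moved with the groups, and their part in the results was not tested. In bulk RNA, fewer cells of a type and less RNA per cell cannot be told apart.

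In experiment 1, 5 of the 10 genes were lower in KO, where 28.1% of all genes tested were lower, and 2 were higher, where 27.0% of all genes were higher. In experiment 2 no member was lower, against 8.29% of all genes, and 1 was higher, against 7.52%. Replicate libraries lay further apart in experiment 2, and the standard errors of all 10 genes were larger there. That of Rhoa was 0.07 in experiment 1 and 0.13 in experiment 2, and that of Rhoc 0.07 and 0.25. Fewer calls in experiment 2 therefore do not show that KO effects were absent there. At an unadjusted p under 0.05 Rhoc and Arhgef2 were lower and Rhob and Rock2 higher there (34.1% of all genes passed in either direction), and DESeq2 called Rhob and Rhoc (23.9% of the genes it gave an adjusted p). No member passed the threshold in the same direction in both experiments (4.38% of all genes did), and Rhob passed it in opposite directions (6.34% of all genes did). The median log2 fold change of the 10 genes was -0.13 in experiment 1 and -0.05 in experiment 2, beside 0.01 and 0.01 over all genes tested. KO and WT libraries did not overlap for 9 members in experiment 1, where 80.0% of all genes did not overlap, and for 5 members in experiment 2, where the share was 65.4%. With upper-quartile scaling, which moved the median of all genes by 0.10 (log2) in experiment 1, the split over all genes became 3207 lower and 4776 higher in place of 4056 and 3892, and that of the members 4 lower and 3 higher, because Rhoa lost its call and Limk1 gained one.

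**Figure D1:**
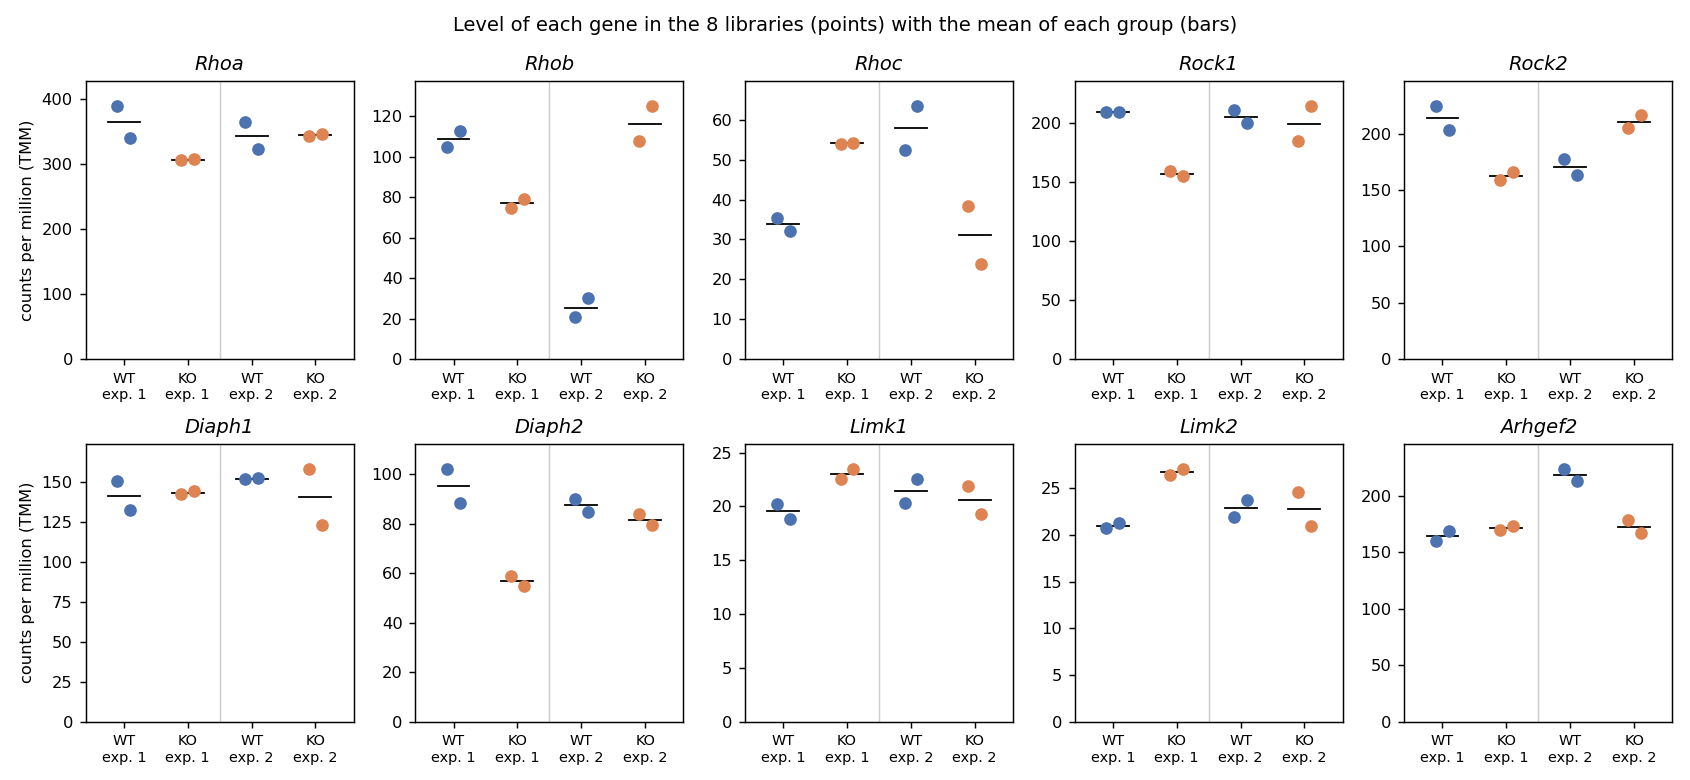
Level of each of the 10 genes in CPM (vertical axis, from 0) in the 8 libraries, WT in blue and KO in orange, with a bar at the mean of the 2 libraries of each group. Rhob had 20.8 and 30.0 CPM in WT of experiment 2 against 74.9 to 125 CPM elsewhere, and Diaph2 was lowest in KO of experiment 1, at 54.7 and 58.8 CPM.

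Per kilobase of the principal transcript, Rhoa was the most abundant of the 10 mRNAs, with a mean of 154.9 CPM per kb (range 139.4 to 177.2 over the 8 libraries). Arhgef2, Rhoc, Rhob, Rock1, Diaph1, Rock2 and Diaph2 followed, with means of 42.3, 36.8, 34.9, 29.9, 25.5, 24.8 and 21.4 CPM per kb, and the ranges of neighbours in this order overlapped. Limk2 and Limk1 came last, with 6.65 and 6.34 CPM per kb, below the range of every other member and overlapping each other. These means cover groups that differ: Rhob had 10.8 CPM per kb in WT of experiment 2, below Diaph2 (23.4), and 49.5 in KO of experiment 2, above Arhgef2 (40.2). By the mean over all 8 libraries, Rhoa was also first and the LIM kinases last with the longest transcript or all exons as the length, but not in every group. With all exons Rhob (49.5) was above Rhoa (46.1) in KO of experiment 2, and with the longest transcript Limk2 (6.95) was above Diaph2 (6.72) in KO of experiment 1. With all exons the genes in between were ordered Rhob, Rhoc, Diaph1, Arhgef2, Rock2, Rock1 and Diaph2. Diaph2 kept the eighth place, but its level became 9.51 CPM per kb with the longest transcript and 6.95 with all exons.

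Arhgef2 encodes an exchange factor that sits on microtubules and activates RhoA when released. It lies on chromosome 3 (GRCm38, 88605966 to 88648052, plus strand). In experiment 1 it had 160.1 and 169.3 CPM in WT and 170.2 and 173.4 CPM in KO, and in experiment 2 it had 223.9 and 213.1 CPM in WT and 178.9 and 167.1 CPM in KO. The WT libraries of experiment 2 were thus the high ones, and the other 6 libraries lay close together. The log2 fold change was 0.05 (95% interval -0.08 to 0.18, adjusted p = 0.490) in experiment 1 and -0.34 (-0.63 to -0.04, adjusted p = 0.111) in experiment 2. Neither passed the threshold, although that of experiment 2 did in 1 fit of all 4 groups (adjusted p = 0.0155), whereas their difference of -0.40 did (adjusted p = 0.0252). That call of the difference was lost when any 1 of WT 1, WT 2, WT 3, KO 5 or KO 6 was left out, with adjusted p between 0.0627 and 0.126 in those fits, and with no filter beyond 1 count in total (adjusted p = 0.0928).

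Rhoa, the archetype of the family, lies on chromosome 9 (108306129 to 108337934, plus strand). It had 389.2 and 340.3 CPM in WT and 306.3 and 307.7 CPM in KO of experiment 1, and 364.7 and 323.6 CPM in WT and 344.3 and 346.9 CPM in KO of experiment 2. The KO libraries lay below both WT libraries in experiment 1 and between them in experiment 2. Rhoa was 1.20-fold lower in KO of experiment 1 (log2 fold change -0.26, standard error 0.07, adjusted p = 0.0186). This call was lost without WT 1 (log2 fold change -0.16, adjusted p = 0.121), without KO 5 (-0.25, adjusted p = 0.0653), without KO 6 (-0.26, adjusted p = 0.0520), with upper-quartile scaling (-0.16, adjusted p = 0.0972) and in 1 fit of all 4 groups (-0.25, adjusted p = 0.0842). In experiment 2 the log2 fold change was 0.01 (-0.32 to 0.33, adjusted p = 0.983), which leaves room for a change as large as that of experiment 1, and the difference between the experiments did not pass the threshold (0.25, adjusted p = 0.188). The gene Tcta overlaps the first bases of Rhoa on the opposite strand and had 4752 counts over the 8 libraries beside 104269 for Rhoa.

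Rhob differs from its relatives in its location on endosomes as well as at the plasma membrane, and its short-lived mRNA is known to be induced by growth factors and stress. It is a gene of 1 exon on chromosome 12 (8497661 to 8500009, minus strand). In experiment 1 it had 105.0 and 112.9 CPM in WT and 74.9 and 79.4 CPM in KO. In experiment 2 it had 20.8 and 30.0 CPM in WT and 107.7 and 125 CPM in KO. The groups were apart in both experiments, and the 2 WT libraries of experiment 2 held the lowest levels by a wide margin, so that WT lay above KO in one experiment and below it in the other. Rhob was 1.42-fold lower in KO of experiment 1 (log2 fold change -0.51, standard error 0.06, adjusted p = 0.0003) and 4.59-fold higher in KO of experiment 2 (2.20, standard error 0.21, adjusted p = 0.0080). The difference between these effects was 2.69 (standard error 0.23, adjusted p = 0.0004), and it passed the threshold in all 15 alternative fits. The call in experiment 2 was lost in 1 fit, without KO 8 (log2 fold change 2.09, adjusted p = 0.0580). The standard deviation of its log2 CPM over the 8 libraries was larger than that of 91.9% of all genes tested.

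Rhoc, a GTPase close to RhoA in sequence and known for its part in cell migration, lies on chromosome 3 (104788375 to 104794459, plus strand). In experiment 1 it had 35.4 and 32.2 CPM in WT and 54.0 and 54.2 CPM in KO. In experiment 2 it had 52.5 and 63.4 CPM in WT and 38.3 and 23.9 CPM in KO. Levels were therefore high in KO of experiment 1 and WT of experiment 2, the groups in which Rhob was lower than in its counterpart. Rhoc was 1.59-fold higher in KO of experiment 1 (log2 fold change 0.67, standard error 0.07, adjusted p = 0.0001). In experiment 2 the log2 fold change was -0.90 (-1.54 to -0.26, adjusted p = 0.0741), which did not pass the threshold with edgeR but did with DESeq2 (adjusted p = 0.0072), in 1 fit of all 4 groups (0.0134) and without KO 7 (0.0471). The difference of -1.58 between the experiments passed it (standard error 0.29, adjusted p = 0.0047).

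Rhob and Rhoc had the largest spread over the libraries, so the windows around their start sites, from 250 bases before to 50 after, are shown from RefSeq (GRCm38.p6). That of Rhob is chr12:8499960-8500259 on the minus strand and that of Rhoc is chr3:104788784-104789083 on the plus strand. The Rhoc window lies inside the annotated gene, which begins at 104788375. Its start site is thus an internal one, and its motif counts hold for that start site only. Capitals mark the CCAAT box (CCAAT or ATTGG) and the GC box (GGGCGG or CCGCCC).
Rhob: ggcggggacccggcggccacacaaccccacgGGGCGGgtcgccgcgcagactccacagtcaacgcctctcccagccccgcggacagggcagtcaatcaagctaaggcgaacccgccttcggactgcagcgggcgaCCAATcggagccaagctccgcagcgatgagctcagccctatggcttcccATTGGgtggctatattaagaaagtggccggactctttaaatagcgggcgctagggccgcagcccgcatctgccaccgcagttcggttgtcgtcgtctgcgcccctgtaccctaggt
Rhoc: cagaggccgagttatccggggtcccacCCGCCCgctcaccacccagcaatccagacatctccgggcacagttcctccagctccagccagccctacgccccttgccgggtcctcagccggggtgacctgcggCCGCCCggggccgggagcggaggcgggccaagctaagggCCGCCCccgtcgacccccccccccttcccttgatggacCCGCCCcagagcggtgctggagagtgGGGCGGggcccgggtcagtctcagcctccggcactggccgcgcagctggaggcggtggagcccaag
The Rhob window held 2 CCAAT boxes, which begin at -115 and -66 from the start site, and 1 GC box. The Rhoc window held 5 GC boxes and no CCAAT box. Over 32851 such windows of the mouse genome 37.4% held a CCAAT box and 35.7% a GC box, so neither motif is rare. A TATA box (TATAAA), an AP-1 site (TGANTCA) and a cyclic AMP response element (TGACGTCA) were also searched on both strands, as was the CArG box, the element that SRF binds. None of these was found in either window, and the CArG box was not found in the window of any of the 8 members that had one, where 1.63% of all windows held it. Rock1 and Diaph1 were not matched to a window.

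**Figure D2:**
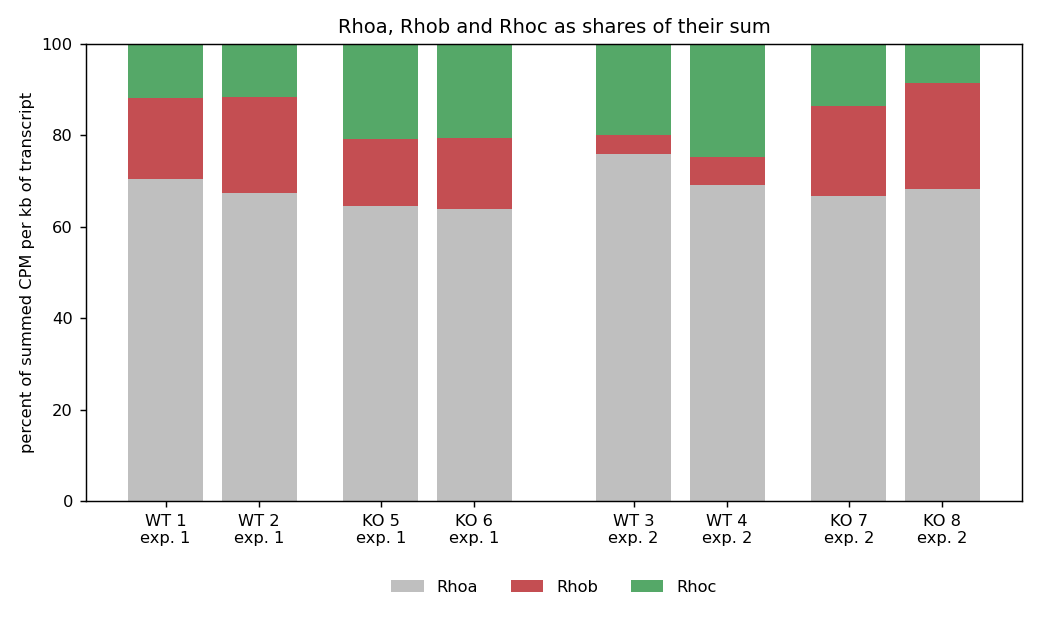
Rhoa, Rhob and Rhoc as percent of their summed CPM per kilobase of principal transcript (vertical axis, 0 to 100), with 1 bar for each of the 8 libraries. Rhob made up 4.05% and 6.00% of the sum in WT of experiment 2 and between 14.7% and 23.0% in the other 6 libraries, and Rhoc between 8.61% and 24.8%.

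As a share of the 3 GTPases per length, Rhoa mRNA stayed at between 64.0% and 75.9% in all libraries. Rhob made up 17.8% and 20.9% in WT and 14.7% and 15.4% in KO of experiment 1, and 4.05% and 6.00% in WT and 19.6% and 23.0% in KO of experiment 2. In WT of experiment 2 the share of Rhoc was 20% and 24.8%, above that of Rhob, whereas in WT of experiment 1 it was 11.7% in both libraries, below that of Rhob. Shares depend on the length used: with all exons as the length, Rhoa held between 37.9% and 54.1%, and the share of Rhob was above it in WT 2 (42.4% against 40.0%) and KO 8 (46.6% against 40.5%) and next to it in KO 7 (39.7% against 39.8%). The order of Rhob and Rhoc in these 2 WT groups was the same with that length.

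Rock1 and Rock2 encode the ROCK kinases, effectors of RhoA that phosphorylate the myosin phosphatase subunit, myosin light chain and the LIM kinases. Rock1 lies on chromosome 18 (10064401 to 10182045, minus strand) and Rock2 on chromosome 12 (16894895 to 16987823, plus strand). Rock1 had 208.7 and 209.4 CPM in WT and 158.8 and 154.7 CPM in KO of experiment 1, and 210.5 and 199.6 CPM in WT and 184.7 and 214.0 CPM in KO of experiment 2. The 2 KO libraries of experiment 1 were the lowest of the 8, and the groups overlapped in experiment 2. Rock1 was 1.34-fold lower in KO of experiment 1 (log2 fold change -0.43, standard error 0.06, adjusted p = 0.0003), while in experiment 2 the log2 fold change was -0.04 (-0.37 to 0.29, adjusted p = 0.852). The difference of 0.37 narrowly missed the threshold (adjusted p = 0.0518). It passed with DESeq2 (0.0422), with at least 10 counts required in every library (0.0455) and without KO 7 (0.0080).

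Rock2 had 224.2 and 203.4 CPM in WT and 158.4 and 166.2 CPM in KO of experiment 1. In experiment 2 it had 177.7 and 163.4 CPM in WT and 204.9 and 216.2 CPM in KO. The order of the groups was reversed, with no overlap in either experiment. Rock2 was 1.33-fold lower in KO of experiment 1 (log2 fold change -0.41, standard error 0.07, adjusted p = 0.0012). In experiment 2 the log2 fold change was 0.30 (0.01 to 0.60, adjusted p = 0.141, and 0.0343 in 1 fit of all 4 groups), and the difference of 0.70 between the experiments passed the threshold (standard error 0.13, adjusted p = 0.0044).

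Diaph1 and Diaph2 encode the diaphanous formins mDia1 and mDia3, which active RhoA and its relatives release from autoinhibition. Diaph1 lies on chromosome 18 (37843601 to 37935476, minus strand) and Diaph2 on chromosome X (129749742 to 130465834, plus strand). Diaph1 had 150.6 and 132.1 CPM in WT and 142.5 and 144.0 CPM in KO of experiment 1, and 152.1 and 152.2 CPM in WT and 158.1 and 122.8 CPM in KO of experiment 2. It was the only member whose groups overlapped in experiment 1, and in experiment 2 its KO libraries lay on either side of WT. The log2 fold changes were 0.01 (-0.16 to 0.17, adjusted p = 0.936) and -0.12 (-0.50 to 0.27, adjusted p = 0.635).

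Diaph2 had 102.1 and 88.5 CPM in WT and 58.8 and 54.7 CPM in KO of experiment 1, and 89.9 and 84.9 CPM in WT and 83.8 and 79.3 CPM in KO of experiment 2. It was the only member whose 4 KO libraries all lay below its 4 WT libraries, a pattern without overlap that 12.7% of all genes tested showed in one direction or the other. The decrease was clear in experiment 1, at 1.69-fold (log2 fold change -0.76, standard error 0.08, adjusted p = 0.0002), and this call held in all 12 alternative fits. In experiment 2 the log2 fold change was -0.10 (-0.36 to 0.16, adjusted p = 0.545), and the difference of 0.65 passed the threshold (adjusted p = 0.0073). Over both experiments, with the experiment as a term, it was -0.42 (adjusted p = 0.124).

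Limk1 and Limk2 encode the LIM kinases, which inactivate cofilin. Limk1 lies on chromosome 5 (134656039 to 134688598, minus strand) and Limk2 on chromosome 11 (3344256 to 3409189, minus strand). Limk1 had 20.3 and 18.8 CPM in WT and 22.5 and 23.5 CPM in KO of experiment 1, and 20.3 and 22.6 CPM in WT and 21.9 and 19.2 CPM in KO of experiment 2. Limk2 had 20.7 and 21.3 CPM in WT and 26.4 and 27.1 CPM in KO of experiment 1, and 22.0 and 23.8 CPM in WT and 24.7 and 21.0 CPM in KO of experiment 2. For both genes the KO libraries of experiment 1 lay above their WT libraries, and the groups of experiment 2 overlapped. Limk2 was 1.26-fold higher in KO of experiment 1 (log2 fold change 0.34, standard error 0.07, adjusted p = 0.0056). Limk1 missed the threshold there, with a log2 fold change of 0.22 (0.03 to 0.41, adjusted p = 0.0506). It passed with upper-quartile scaling (0.32, adjusted p = 0.0102) and with at least 10 counts in every library (0.24, adjusted p = 0.0401), a filter under which 8 members and 56.8% of all genes passed. In experiment 2 the log2 fold changes were -0.06 (-0.40 to 0.28, adjusted p = 0.785) for Limk1 and -0.01 (-0.35 to 0.34, adjusted p = 0.986) for Limk2, and neither difference between the experiments passed the threshold (adjusted p = 0.148 and 0.0863). The difference of Limk2 passed it in 1 of 15 alternative fits.

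**Figure D3:**
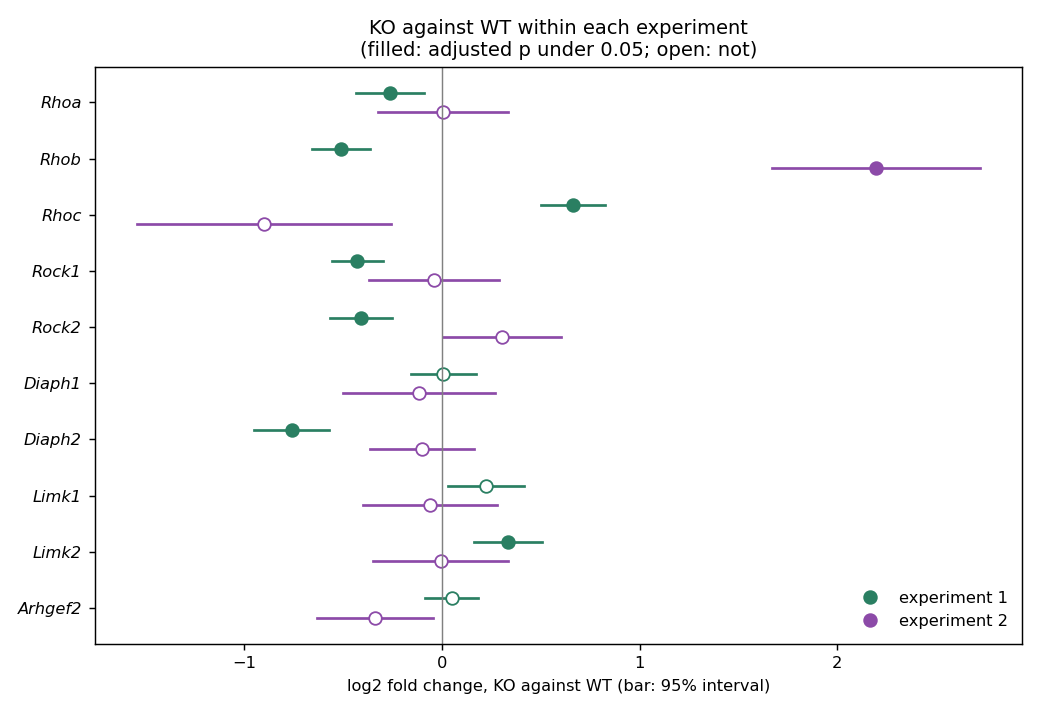
Log2 fold change of KO against WT (horizontal axis) with its 95% interval for the 10 genes, experiment 1 in green and experiment 2 in purple, filled where the adjusted p was under 0.05 and open otherwise. Rhob is the only gene filled in both, at -0.51 and 2.20, and the intervals of Rhoc (0.50 to 0.83 and -1.54 to -0.26) lie on opposite sides of 0.

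The interaction test called 5 of the 10 genes, namely Rhob, Rhoc, Rock2, Diaph2 and Arhgef2, as differing in their KO effect from one experiment to the other, where 41.6% of all genes tested differed. With both experiments in 1 fit and the experiment as a term, none of the 10 passed the threshold, where 7.12% of all genes did. The targeted gene Mkl1 missed it too in that fit (log2 fold change -0.78, adjusted p = 0.0574). At an unadjusted p under 0.05 that fit counted 1 member, Diaph2, and 25.2% of all genes, and DESeq2 called none of the members and 17.3% of all genes. A fit with an interaction term, in which the average of both effects was tested, called Rhob (0.85, adjusted p = 0.0020), Rock1 (-0.23, adjusted p = 0.0316) and Diaph2 (-0.42, adjusted p = 0.0035), so the count of 0 depends on this choice, and it called 33.4% of all genes. In the fit without an interaction the log2 fold changes ran from -0.42 for Diaph2 to 0.85 for Rhob (95% interval -0.51 to 2.20, adjusted p = 0.408).

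The nuclear end of the pathway is the transcription factor SRF with MKL1 and its relative MKL2. Mkl2 had between 37.6 and 48.3 CPM in WT and between 57.2 and 69.4 CPM in KO. It was higher in KO of experiment 1 (log2 fold change 0.58, adjusted p = 0.0002) and had 0.49 (0.10 to 0.88, adjusted p = 0.0911) in experiment 2. Srf had between 35.4 and 41.7 CPM in WT and between 27.0 and 33.0 CPM in KO. It was lower in KO of experiment 1 (log2 fold change -0.40, adjusted p = 0.0015) and had -0.46 (-0.78 to -0.13, adjusted p = 0.0700) in experiment 2. Over both experiments, with the experiment as a term, Mkl2 (0.54, adjusted p = 0.0243) and Srf (-0.42, adjusted p = 0.0250) passed the threshold. Their differences between the experiments did not (adjusted p = 0.677 and 0.724). Mkl1 was lower in KO of both experiments (-0.39, adjusted p = 0.0038, and -1.17, adjusted p = 0.0218). The first call was lost in 1 fit of all 4 groups (adjusted p = 0.0812) and the second without WT 3 (0.0567), WT 4 (0.0540) or KO 8 (0.0736). In experiment 2, Mkl2 and Srf passed the threshold in 1 fit of all 4 groups (adjusted p = 0.0215 and 0.0106) and with no filter on low counts (0.0379 and 0.0447). The WT and KO ranges of these 3 genes over all 8 libraries were apart, as were those of Diaph2 among the 10 upstream genes and of 12.7% of all genes tested.

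Of the regulators that switch RhoA on and off, 16 of 18 listed exchange factors were tested, with 8 higher and 2 lower in KO of experiment 1, and none higher and 2 lower in experiment 2. The median log2 fold changes were 0.42 and -0.27. Of all genes tested, 27.0% were higher and 28.1% lower in experiment 1, and 7.52% and 8.29% in experiment 2, and the counts of each pathway list stand beside these shares. Arhgef40 was higher (log2 fold change 2.34) and Arhgef12, which links G protein-coupled receptors to RhoA, was lower (-0.63) in KO of experiment 1. In experiment 2 they had -0.41 and 0.63, neither past the threshold, and the difference between the experiments passed for both (adjusted p = 0.0089 and 0.0145). Arhgef3 was lower in experiment 2 (-1.81, adjusted p = 0.0132) and had -0.12 in experiment 1 (adjusted p = 0.4997), and this difference passed as well (adjusted p = 0.0034). Arhgef10l was higher in experiment 1 (0.61) and lower in experiment 2 (-0.48, adjusted p = 0.0428).

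Of 18 listed GTPase activating proteins 17 were tested, with 11 higher and 3 lower in experiment 1 (all genes 27.0% and 28.1%) and 3 higher and 1 lower in experiment 2 (all genes 7.52% and 8.29%). Arhgap18 was higher in KO of both experiments (log2 fold change 0.91 and 0.69, adjusted p = 4.91e-05 and 0.0326), and so was Stard8 (0.73 and 0.74, adjusted p = 3.12e-05 and 0.0250). Arhgap6 and Arhgap45 were higher in experiment 1 (1.48 and 1.05), and their KO libraries also lay above WT in experiment 2 (0.84, adjusted p = 0.0936, and 0.44, adjusted p = 0.0745). Both passed the threshold over both experiments (adjusted p = 0.0221 and 0.0269). Of the 3 dissociation inhibitors Arhgdia and Arhgdib were tested. Arhgdib, the form of blood cells, was lower in KO of experiment 1 (-0.79) and had -0.16 in experiment 2 (adjusted p = 0.612), and Arhgdia passed the threshold in neither.

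**Figure D4:**
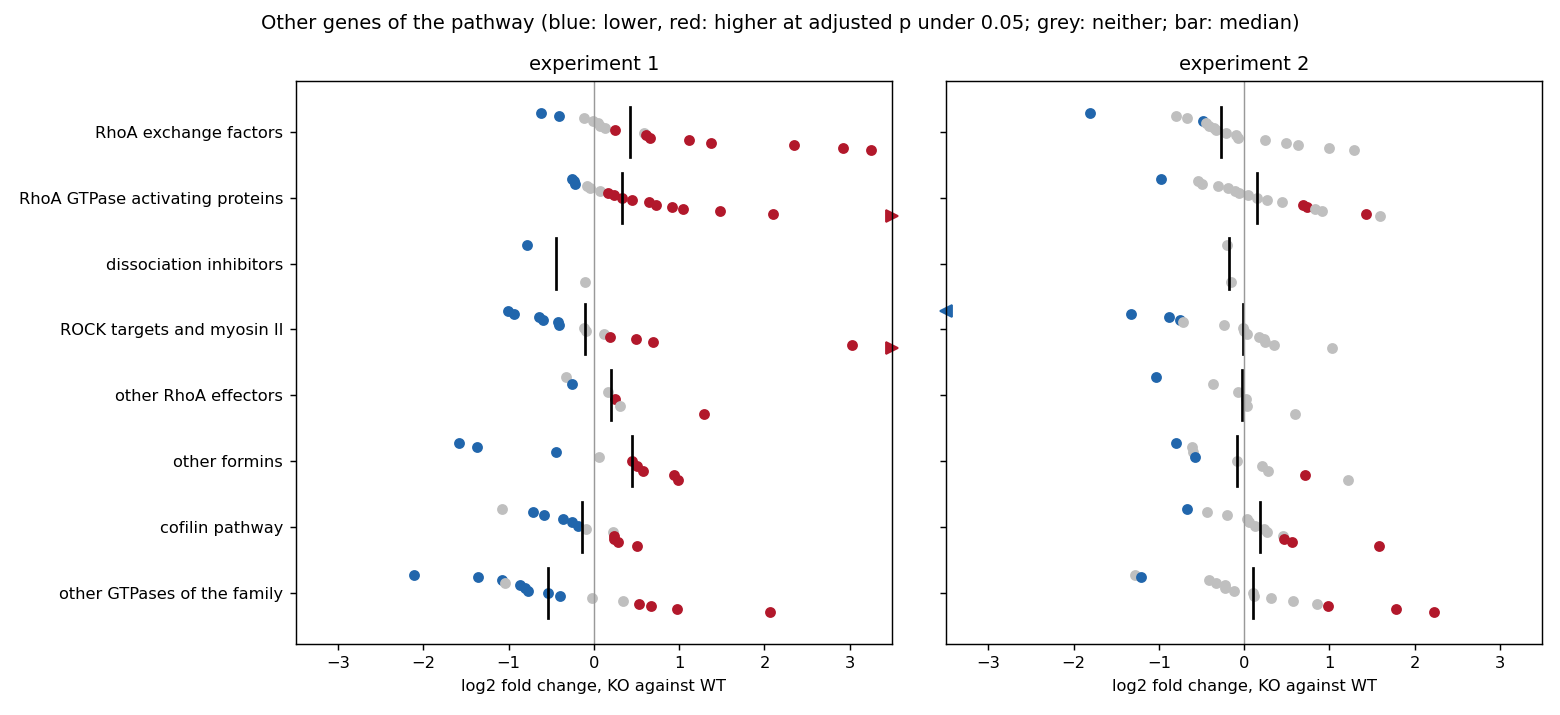
Log2 fold change of KO against WT (horizontal axis) for each tested gene of 8 lists of the pathway, 1 row per list, in experiment 1 (left) and experiment 2 (right). Blue points were lower and red points higher at an adjusted p under 0.05, grey points neither, the bar is the median of the list, and triangles stand for 2 genes in experiment 1 and 1 in experiment 2 beyond the axis limit of 3.5.

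Among the targets of the ROCK kinases and the parts of myosin II, 14 of 15 listed genes were tested, with 6 lower and 5 higher in experiment 1 and 4 lower and none higher in experiment 2. Ezr, encoding the membrane and actin linker ezrin, was lower in KO of both experiments (log2 fold change -1.01 and -1.33, adjusted p = 0.0003 and 0.0066). Myl12a, a regulatory light chain of non-muscle myosin, was lower in both as well (-0.41 and -0.75, adjusted p = 0.0004 and 0.0160). Msn, encoding moesin, was lower in experiment 1 (-0.93) and had 0.35 in experiment 2 (adjusted p = 0.239; difference, adjusted p = 0.0020). Mylk, the myosin light chain kinase, had 1.35 and 1.20 CPM in WT and 9.16 and 11.9 CPM in KO of experiment 1 and between 0.575 and 1.61 CPM in experiment 2. Myl9 and Ppp1r12b, named after their values were seen, were the genes of this list with opposite calls. Myl9, the light chain of smooth muscle, had at most 0.117 CPM in WT and 3.16 and 5.84 CPM in KO of experiment 1, and 0.657 and 0.603 CPM in WT and at most 0.0244 CPM in KO of experiment 2. The KO libraries with the highest Mylk and Myl9 were those with the summed fibroblast markers at 279.6 and 351 CPM, and the part of other cells in these levels was not tested.

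Of the other formins, 9 of 11 were tested, with 3 lower and 5 higher in experiment 1 and 2 lower and 1 higher in experiment 2. Diaph3, the third diaphanous formin, was lower in KO of both experiments (log2 fold change -0.44 and -0.79, adjusted p = 0.0059 and 0.0307), and so was Daam1 (-1.37 and -0.58, adjusted p = 4.69e-06 and 0.0246). Fmnl2 was lower in experiment 1 (-1.58) and had 0.28 in experiment 2 (adjusted p = 0.140), and Fmnl3 was higher in experiment 2 (0.71, adjusted p = 0.0297) and had 0.06 in experiment 1 (adjusted p = 0.479). The differences between the experiments passed for both (adjusted p = 0.0002 and 0.0145). Of the other RhoA effectors 6 of 8 were tested, with 1 lower and 2 higher in experiment 1 and 1 lower and none higher in experiment 2. Pkn2 was lower in experiment 1 (-0.26), Rtkn2 was higher in experiment 1 (1.29), and Cit, encoding citron kinase, was lower in experiment 2 (-1.04, adjusted p = 0.0374). In the other experiment Pkn2, Rtkn2 and Cit had -0.07, 0.04 and 0.31, none past the threshold, and the difference passed for Cit (adjusted p = 0.0082) but not for Pkn2 (0.214) or Rtkn2 (0.0767). Pkn3, the gene of this list with the next smallest p in experiment 2, had -0.37 there (adjusted p = 0.367).

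Of the 12 genes of the cofilin pathway, all tested, 5 were lower and 4 higher in experiment 1, and 1 was lower and 3 were higher in experiment 2. Ssh1 and Ssh2, the slingshot phosphatases that reactivate cofilin, were higher in KO of both experiments, with log2 fold changes of 0.23 and 0.57 for Ssh1 (adjusted p = 0.0353 and 0.0315) and of 0.24 and 1.59 for Ssh2 (adjusted p = 0.0350 and 0.0071). Cfl1, encoding the cofilin of non-muscle cells, was lower in experiment 1 (-0.59) and had -0.43 in experiment 2 (adjusted p = 0.101). Pak1, a kinase that acts on LIM kinases, was lower in experiment 1 (-0.72) and had 0.23 in experiment 2 (adjusted p = 0.458), and this difference passed the threshold (adjusted p = 0.0144). Cfl2, named after its values were seen, was lower in experiment 1 (-0.26) and higher in experiment 2 (0.47).

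The 15 other GTPases of the family were all tested, with 8 lower and 4 higher in experiment 1 and 1 lower and 3 higher in experiment 2. Rac2, the Rac of blood cells, had 704 and 746 CPM in WT and 340 and 350 CPM in KO of experiment 1, and 437 and 359 CPM in WT and 707 and 875 CPM in KO of experiment 2. Like Rhob it was lower in KO of experiment 1 (log2 fold change -1.08) and higher in KO of experiment 2 (0.99, adjusted p = 0.0272). The same held for Rhou (-0.86 and 1.79) and, named after its values were seen, Rhov (-0.81 and 2.23). Rhoq was lower in experiment 1 (-0.78) and had 0.31 in experiment 2 (adjusted p = 0.151). Rhof was lower in experiment 2 (-1.21, adjusted p = 0.0210) and had 0.34 in experiment 1 (adjusted p = 0.0878). The differences between the experiments passed for Rhoq and Rhof (adjusted p = 0.0014 and 0.0036).

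The genes most like the 3 members of largest spread were ranked by the root mean square distance of centred log2 CPM over the 8 libraries. Hgf, encoding hepatocyte growth factor, was nearest to Rhob (distance 0.16), with 41.6 and 42.05 CPM in WT and 32.3 and 33.0 CPM in KO of experiment 1 and 8.57 and 11.7 CPM in WT and 38.5 and 37.0 CPM in KO of experiment 2. Pde3b (0.16) and Cmtm8 (0.18) came next. Pam, Btg1 and Cdkn2c were nearest to Rhoc (0.09, 0.11 and 0.11), and Btg1 had 111.5 and 100.8 CPM in WT and 179.0 and 161.2 CPM in KO of experiment 1 and 195.2 and 198.9 CPM in WT and 115.3 and 85.0 CPM in KO of experiment 2. Arpc5, a subunit of the complex that branches actin filaments, was nearest to Diaph2 (0.07), followed by Strap and Nab1 (0.08 and 0.08). Arpc5 had between 314.7 and 321.8 CPM in KO of experiment 1, against 433.8 to 533.9 CPM elsewhere. These libraries share 4 groups, so likeness over 8 points is a description of group levels.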

How the data were processed

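RNA-seq libraries of BMDMs from WT and KO mice (8 in all, 4 per genotype) were prepared from mRNA with a stranded kit. The submitters' processing notes name STAR 2.7.0f, featureCounts of Subread 1.6.4, DESeq2 1.22.1 and the build GRCm38. The annotation release, the strand setting and the handling of reads with several matches are not given in the sources used here. For each experiment the authors deposited raw counts per gene symbol, the unit used here, and a table of normalized counts that was not used because it was scaled within each experiment. No column was left unassigned and no row lacked a gene.

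Both count tables were joined by symbol. Genes that passed filterByExpr by genotype were kept, which left 14418 genes with between 99.8781% (KO 6) and 99.9471% (WT 1) of the counts of a library. They were fitted with edgeR 4.0.16 (R 4.3.3) after TMM scaling (robust quasi-likelihood fit and F test) within each experiment, over both with the experiment as a term, and with the product of experiment and genotype for the difference between the experiments. P-values were adjusted over all genes tested by Benjamini-Hochberg with a threshold of 0.05, and intervals are at 95%. The script was tested on simulated data with 200 genes changed, in equal numbers by a smaller and a larger factor. The smaller factor lay between the 1.42-fold of Rhob and the 1.59-fold of Rhoc in experiment 1. It was recovered for 21 genes in experiment 1, 16 in experiment 2 and 4 for the difference, and the larger for 87, 86 and 70. Over both experiments 70 and 95 were recovered. Unchanged genes called numbered 20, 14, 7 and 8. Counting error of a member in 1 library was at most 3.95% of its level, and it covers counting only. The spread between the 2 libraries of a group exceeded counting error in every group, and it was larger in experiment 2. Its chi-square per gene was 15.9 in WT and 12.0 in KO of experiment 1. In experiment 2 it was 67.4 in WT and 80.4 in KO.

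Gene positions and lengths came from GENCODE M21 on GRCm38, with the APPRIS principal transcript as the length for levels per kilobase. Promoter windows came from RefSeq on GRCm38.p6. The named genes were all 10 members, Mkl1, Mkl2 and Srf, the genes of each pathway list past the threshold in the same direction in both experiments, the 2 with the smallest p of each list in each experiment, and the 3 nearest genes of each of the 3 members with the largest spread. Of these, 1 gene of the pathway lists is not reported here. The members and the lists were chosen with earlier results of these data known. Alternatives were DESeq2 1.42.0, its size factors in edgeR, upper-quartile scaling, voom of limma 3.58.1, no filter beyond 1 count, at least 10 counts in every library, an adjusted p under 0.01, 1 fit of all groups, other terms for the experiment, and each library left out in turn. Figures were drawn with matplotlib 3.10.9.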

Additional observations from a re-analysis of the deposited data

Results flagged for a closer look

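For 5 of the 10 genes the effect of KO differed between the experiments by the interaction test of edgeR. The log2 fold change in experiment 2 minus that in experiment 1 was 2.69 for Rhob, -1.58 for Rhoc, 0.70 for Rock2, 0.65 for Diaph2 and -0.40 for Arhgef2. For Rhob every KO library moved down in experiment 1 and up in experiment 2 against the WT libraries of its experiment. The KO libraries of Rhoc lay above WT in experiment 1 and below it in experiment 2, and those of Rock2 lay below and above. The KO libraries of Diaph2 lay below WT in both experiments, by more in experiment 1. For Arhgef2 the WT libraries of experiment 2 were higher than all others. Among all genes tested 41.6% differed in this way. Experiment and any other difference between the batches cannot be told apart.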

How the results depend on the processing

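No paired analysis was possible because the library numbers differ between the groups, so no replicate block could be fitted. The log2 fold changes that changed sign all belonged to differences that did not pass the threshold. Diaph1 in experiment 1 had -0.030 without the filter and from -0.083 to 0.11 with 1 library left out. In experiment 2, upper-quartile scaling gave 0.012 for Rock1 and 0.046 for Limk2, at least 10 counts in every library gave 0.0016 for Limk2, and leaving out 1 library gave from -0.15 to 0.061 for Rock1, -0.13 to 0.11 for Limk2, -0.078 to 0.092 for Rhoa, -0.31 to 0.056 for Diaph1 and -0.16 to 0.030 for Limk1. For the difference between the experiments it gave from -0.29 to 0.036 for Diaph1, -0.24 to 0.092 for Mkl2 and -0.16 to 0.055 for Srf. Over both experiments, upper-quartile scaling gave 0.024 for Rock2 and 0.023 for Diaph1, and leaving out 1 library gave from -0.15 to 0.056 for Rock2, -0.10 to 0.034 for Diaph1 and -0.34 to 0.20 for Rhoc.

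In experiment 2 the number of members called was 2 with DESeq2 and 4 in 1 fit of all groups, and from 0 (without KO 8) to 2 (without KO 7) with 1 library left out. The number of genes called there was 234 at an adjusted p under 0.01, 4899 in 1 fit of all groups, and from 232 (without KO 8) to 1388 (without WT 4). For the difference between the experiments it was 3247 at an adjusted p under 0.01 and from 3935 (without WT 2) to 6508. Over both experiments it was 2492 with DESeq2, 208 at an adjusted p under 0.01, 4 without the experiment term, 4811 for the mean effect with an interaction (with 3 members called), and from 243 (without WT 1) to 1100. Where 1 library was left out, the lone library of its group was assumed to vary like the other groups. The causes of these changes were not tested. The length of the APPRIS principal transcript was chosen after seeing the data. Of 728 log2 fold changes under alternatives 643 kept their direction and their side of the threshold. Counting error was at most 3.95% of a member's level in any library, and each group held 2 libraries.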
